A study of Mus musculus with 8 samples.

Results

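Immediate early genes are transcribed within minutes of a stimulus, from factors already present in the cell, and their mRNAs are short-lived. The set described here held 10 of them, taken from the table by gene symbol: Fos, Fosb, Junb, Egr1, Egr3, Nr4a1, Arc, Npas4, Ier2 and Dusp1. All 10 were among the 17500 genes of the deposited count table, and all 10 were among the 16797 genes that passed a filter on low counts and were tested. They were measured by poly(A) RNA sequencing of the whole retina in 8 mice, 4 controls (M833, M894, M896 and M898) and 4 mice labelled Rbfox2 KD (M893, M901, M902 and M909). Rbfox2 is an RNA-binding protein that regulates splicing.

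The mice were 6 months old and on a C57BL/6J background. Rbfox2 KD mice carried loxP-flanked Rbfox2 on both alleles (Rbfox2 fl/fl) together with a tamoxifen-inducible Cre, which is not limited to a retinal cell type. According to the methods, the KD mice were taken 4 months after tamoxifen and the controls were Rbfox2 fl/+ mice of the same age, so all the mice carried at least 1 loxP-flanked allele. The labels attach the same tamoxifen note to every sample, while the methods name tamoxifen or corn oil and separate caging of mice given tamoxifen. Whether the controls carried Cre or received tamoxifen is not given in the sources used here, so effects of Cre, tamoxifen or housing cannot be told apart from that of Rbfox2. Each library is 1 mouse.

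Libraries held 160630226 to 211283591 counts, so that a count of 3 corresponded to 0.0144 to 0.0189 CPM (counts scaled to the size of the library), and no library pair differed by as little as sampling noise (lowest chi-square per degree of freedom, 31.5). Rbfox2 itself was 53.6 to 59.4 CPM in the KD retinas and 143.8 to 156.8 CPM in the controls, with no overlap (log2 fold change -1.41, adjusted p = 5.51e-07, edgeR quasi-likelihood test with Benjamini-Hochberg adjustment). Retinal identity was plain from the 4 rod marker genes, which summed to between 43823 and 48515 CPM in all 8 libraries. KD retinas M901 and M902 stood apart by Xist, the RNA that silences an X chromosome in female cells, at 1440 and 1739 CPM against 1.71 to 2.22 CPM in the other 6. No control had high Xist, so any effect of sex is partly mixed with that of Rbfox2. KD retina M909 stood apart by epithelial keratins, with Krt5 at 24.7 CPM against 0.209 to 2.47 CPM elsewhere. In a bulk sample, fewer cells of a type and less RNA per cell cannot be told apart.

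In retinal neurons as elsewhere, calcium entry and growth factor signals reach these genes through MAP kinases and calcium/calmodulin-dependent kinases, which activate serum response factor with its Elk cofactors and the cyclic AMP response element binding protein CREB at their promoters. Fos, Fosb and Junb encode subunits of the AP-1 transcription factor, Egr1 and Egr3 zinc finger transcription factors, and Nr4a1 an orphan nuclear receptor. Npas4 and Arc are largely neuronal: Npas4 is a transcription factor that responds selectively to calcium influx, and Arc is a synaptic protein that promotes removal of AMPA receptors from the membrane. Ier2 encodes a nuclear protein, and Dusp1 a phosphatase that inactivates MAP kinases and so limits the response.

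The genes were compact. Their RefSeq transcripts, placed on the GENCODE M21 annotation (GRCm38), spanned a median of 3618 bases, against 21902 bases over the 13809 tested genes that could be placed, and 8 of the 10 had at most 4 exons, against 23.6% of those genes. Junb (chr8:84976910-84978718, minus strand) and Ier2 (chr8:84661331-84662852, minus strand) have a single exon each and lie 314 kb apart. Fosb lies at chr7:19302696-19310051 (minus strand, 4 exons), Fos at chr12:85473890-85477273 (plus strand, 4 exons), Npas4 at chr19:4984355-4990316 (minus strand, 8 exons) and Dusp1 at chr17:26505590-26508519 (minus strand, 4 exons). Nr4a1 (chr15:101266846-101274795, plus strand) has 7 exons, Arc (chr15:74669083-74672568, minus strand) 3, and Egr3 (chr14:70077314-70082550, plus strand) 2. No other annotated gene overlapped any of the 10.

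RefSeq promoter windows of GRCm38.p6, 250 bases before to 50 after the transcription start, were searched for 6 of the 10 genes (Fos, Fosb, Junb, Nr4a1, Npas4 and Dusp1). Stretches upstream of the start that the window uses are shown for Fosb and Npas4, the pair whose levels separated the genotypes, and for Fos and Dusp1, whose levels overlapped between them. Capitals mark the core of the cyclic AMP response element (TGACG, or CGTCA on the other strand), its full palindrome TGACGTCA, the EGR motif GCGNGGGCG and TATAAA, the letters of a TATA box. Each reads 5' to 3' on the strand of the gene.
Fosb, chr7:19310052-19310295, minus strand: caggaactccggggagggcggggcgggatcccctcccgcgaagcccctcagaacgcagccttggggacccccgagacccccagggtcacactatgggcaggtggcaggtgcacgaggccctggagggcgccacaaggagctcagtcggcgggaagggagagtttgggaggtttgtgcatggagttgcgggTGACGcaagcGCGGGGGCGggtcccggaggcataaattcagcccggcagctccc
Npas4, chr19:4990126-4990155, minus strand: ttcgaCGTCAcgggaTGACGtcggaagtct
Fos, chr12:85473640-85473889, plus strand: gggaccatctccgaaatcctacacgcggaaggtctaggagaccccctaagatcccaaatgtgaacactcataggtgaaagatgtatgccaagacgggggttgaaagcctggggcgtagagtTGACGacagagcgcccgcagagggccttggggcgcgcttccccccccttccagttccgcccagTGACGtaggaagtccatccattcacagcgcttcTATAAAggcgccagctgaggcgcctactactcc
Dusp1, chr17:26508520-26508722, minus strand: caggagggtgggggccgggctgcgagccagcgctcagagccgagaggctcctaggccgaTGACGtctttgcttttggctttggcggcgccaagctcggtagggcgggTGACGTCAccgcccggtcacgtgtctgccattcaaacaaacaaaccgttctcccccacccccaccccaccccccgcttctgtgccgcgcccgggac
The Npas4 stretch is limited to 30 bases around its matches because it lies in an annotated exon. It lies inside Npas4 as placed above (chr19:4984355-4990316, minus strand). It is therefore downstream of the start of that transcript and not promoter sequence upstream of it.

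On both strands, TGACG was found in 6 of the 6 windows and in 20.8% of 32817 RefSeq promoters of the same length. The 6 include Npas4, whose matches lie in an annotated exon, downstream of the start of the transcript placed above. The palindrome TGACGTCA, which contains TGACG, was in 1 window, that of Dusp1, and in 1.79% of all promoters. The EGR motif GCGNGGGCG was in 2 windows, those of Fosb and Nr4a1 (5.56% of all promoters), and TATAAA in 2, those of Fos and Junb (13.6%). In Fos the first base of TATAAA lay 33 bases upstream of the start (-33). In Junb it lay at position 1, the start that the window uses (chr8:84978748). The Junb transcript placed above starts further downstream, at 84978718, so against that transcript the match lies upstream of the start. Neither the CArG box (1.63% of all promoters), bound by serum response factor, nor the AP-1 motif TGANTCA (7.81%) was in any of the 6 windows, which says only that these letters are not in these 300 bases. The windows were 58.7% to 72.3% G and C, against a median of 52.7% over all promoters. No window was found for Egr3, Arc and Ier2, and Egr1 was left out of the search, so the counts do not cover these genes. The matches are descriptions of sequence and were not tested as binding sites.

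Control levels fell into a higher and a lower set. Per length, in the deposited FPKM (fragments scaled to transcript length and depth), 6 genes had control means between 10.7 and 13.7. Their order from the top was Ier2 (13.7 ± 2.31 FPKM, SD, n = 4), Dusp1 (13.6 ± 2.12), Egr1 (12.9 ± 6.45), Nr4a1 (12.7 ± 1.95), Junb (11.7 ± 2.46) and Fos (10.7 ± 3.50), and the control ranges of each neighbouring pair overlapped, so this order did not exceed the spread between mice. The other 4 were lower, at 1.01 ± 0.115 FPKM for Fosb, 0.964 ± 0.123 for Npas4, 0.602 ± 0.0558 for Arc and 0.316 ± 0.0494 for Egr3 (SD, n = 4). Among these, only the ranges of Fosb and Npas4 overlapped, and no control value of Fosb reached the lowest control value of Fos (1.11 against 6.42 FPKM).

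**Figure D1:**
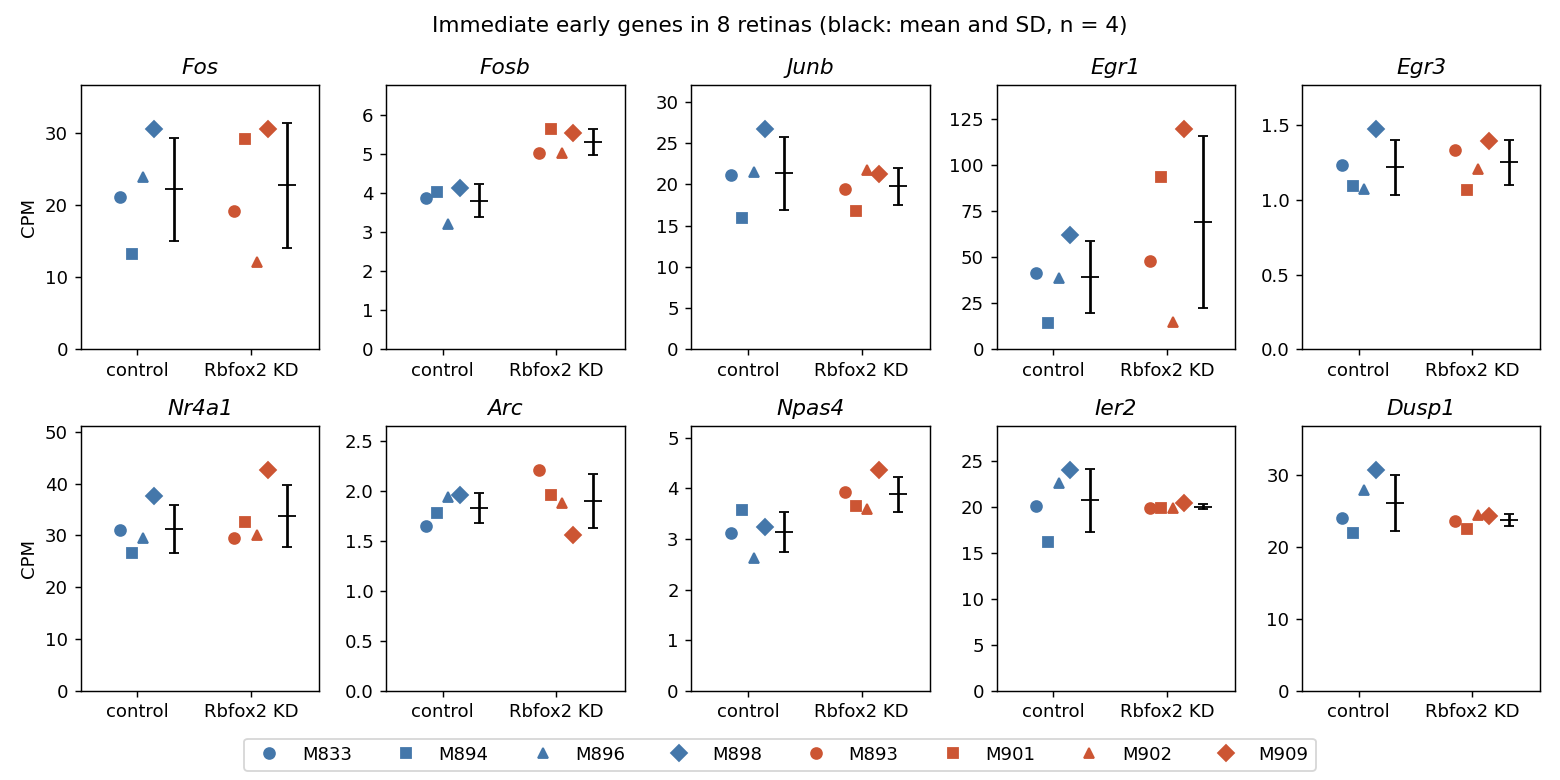
Level of each immediate early gene in each retina, in CPM on a linear axis from 0, for control (blue) and Rbfox2 KD (red) mice; each symbol is 1 mouse and the black bars give the mean and SD of 4 mice. The KD points lie above all control points for Fosb and Npas4, the points of Egr1 span 14.6 to 119.8 CPM, and the 4 KD points of Ier2 lie between 19.9 and 20.5 CPM.

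Among the AP-1 subunits, Fosb had higher values in every KD retina than in any control. It was 3.87, 4.03, 3.20 and 4.14 CPM in controls M833, M894, M896 and M898, and 5.04, 5.64, 5.02 and 5.53 CPM in KD retinas M893, M901, M902 and M909. The groups did not overlap. The means were 3.81 ± 0.422 and 5.30 ± 0.325 CPM (SD, n = 4 each), a 1.39-fold difference with a 95% interval of 1.20 to 1.62, from 612 to 1087 counts per library. The log2 fold change of 0.48 (SE 0.096) did not pass the 0.05 threshold after adjustment over all genes (adjusted p = 0.116, edgeR quasi-likelihood test with Benjamini-Hochberg adjustment), although its unadjusted p did. DESeq2 and edgeR's likelihood ratio test, fitted to the same counts, did call Fosb (adjusted p = 0.000529 and 0.0304), and limma-voom did not; over all alternatives its adjusted p ran from 0.000529 to 0.575.

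Fos, the partner of the Jun proteins from which the family takes its name, ranged as widely within a genotype as between them. It was 21.2, 13.3, 23.9 and 30.6 CPM in controls M833, M894, M896 and M898, and 19.2, 29.2, 12.1 and 30.6 CPM in KD retinas M893, M901, M902 and M909. The highest control and the highest KD retina were level, and so nearly were the lowest of each. The log2 fold change was 0.035 (SE 0.30, 95% interval -0.64 to 0.71), or 0.643 to 1.63 in fold, which leaves wide room in either direction. Junb was 21.2, 15.9, 21.5 and 26.7 CPM in the controls and 19.5, 16.8, 21.7 and 21.2 CPM in the KD retinas, in the same order of mice. The KD range lay inside the control range, with a log2 fold change of -0.11 (SE 0.14, 95% interval -0.42 to 0.20).

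Egr1, the most variable member (chr18:34861207-34864956, plus strand, 3 exons), took values of 41.4, 14.6, 39.1 and 62.2 CPM in controls M833, M894, M896 and M898, and of 48.0, 93.6, 15.0 and 119.8 CPM in KD retinas M893, M901, M902 and M909. KD retinas M901 and M909 were above every control, while M902 was level with the lowest control. Within the KD group the highest value was 8.01 times the lowest, and within the controls 4.27 times. The means of 39.3 ± 19.5 and 69.1 ± 46.7 CPM (SD, n = 4 each) differed 1.76-fold, but the 95% interval ran from 0.731 to 4.22 and the difference did not exceed the spread between mice (log2 fold change 0.81, SE 0.57, adjusted p = 0.570, edgeR quasi-likelihood test). Without M902 the log2 fold change was 1.15 (adjusted p = 0.472, with an unadjusted p under 0.05), and without M909 it was 0.41 (adjusted p = 0.747), both from the edgeR quasi-likelihood test, and over all alternatives the adjusted p ran from 0.472 to 0.847. In M909, which had the highest Egr1, 6 surface epithelium markers summed to 80.5 CPM, against 1.17 to 3.30 CPM in the controls and 2.63 to 7.93 CPM in the other KD retinas. In M901, the second highest, they summed to 7.93 CPM. Of the 5 that could be tested, 4 were higher in the KD retinas at an unadjusted p under 0.05 in edgeR, as were 6.42% of all genes tested. The part of these cells in the Egr1 values was not tested.

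Egr3, of the same zinc finger family, was the least abundant of the 10 per length and far more even. It was 1.23, 1.09, 1.07 and 1.47 CPM in the controls and 1.34, 1.06, 1.20 and 1.40 CPM in the KD retinas, and the groups overlapped almost fully (log2 fold change 0.038, SE 0.15, 95% interval -0.29 to 0.37). Nr4a1 was 31.0, 26.7, 29.5 and 37.7 CPM in the controls and 29.6, 32.6, 30.1 and 42.6 CPM in the KD retinas. Only M909 exceeded the highest control, M898, and the log2 fold change was 0.11 (SE 0.13, 95% interval -0.18 to 0.40).

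Of the largely neuronal genes, Npas4 separated the genotypes and Arc did not. Npas4 was 3.12, 3.57, 2.63 and 3.25 CPM in controls M833, M894, M896 and M898, and 3.93, 3.66, 3.59 and 4.36 CPM in KD retinas M893, M901, M902 and M909. The groups did not overlap, though the highest control (3.57 CPM) and the lowest KD retina (3.59 CPM) were nearly level. The means were 3.14 ± 0.391 and 3.89 ± 0.348 CPM (SD, n = 4 each), a 1.24-fold difference (95% interval 1.04 to 1.47) that passed the unadjusted threshold and not the adjusted one (adjusted p = 0.297, edgeR quasi-likelihood test). Leaving out control M896 or KD retina M909 took the unadjusted p over 0.05 as well, with log2 fold changes of 0.23 and 0.25. Arc was 1.64, 1.78, 1.94 and 1.96 CPM in the controls and 2.21, 1.96, 1.88 and 1.55 CPM in the KD retinas, so the highest and the lowest of the 8 were both KD retinas (log2 fold change 0.054, SE 0.13, 95% interval -0.23 to 0.34). A difference of the size seen for Npas4 (0.31 on the log2 scale) lay inside the interval for Arc.

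Beside Fosb and Npas4, the summed markers of cones and of Müller glia also separated the genotypes, and those of no other cell type list did. Among single genes tested, 7.03% had groups that did not overlap. The 3 cone markers summed to 597.9 to 608 CPM in the controls and 648 to 757 CPM in the KD retinas, and the 4 Müller glia markers to 3918 to 4264 and 3656 to 3838 CPM. Singly, 1 cone marker was higher and 1 lower at an unadjusted p under 0.05 in edgeR, and 1 Müller glia marker was lower. Of all genes tested, 6.42% were higher and 6.87% lower at that threshold. The 4 amacrine cell markers (973 to 1020.0 and 942 to 1005 CPM) and the 4 retinal ganglion cell markers (389 to 662 and 508 to 678 CPM) overlapped. The part of cell makeup in the Fosb and Npas4 values was not tested. Without the 2 retinas that stood apart by Xist, the log2 fold change of Fosb was 0.47 and that of Npas4 0.40, and both kept an unadjusted p under 0.05 in the edgeR quasi-likelihood test. In that setting 6.01% of the 17088 genes tested did so. Neither gene passed the adjusted threshold there (adjusted p = 0.575 for Fosb and 0.749 for Npas4, edgeR quasi-likelihood test).

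Ier2 and Dusp1 were spread over the controls and narrow in the KD retinas. Ier2 was 20.1, 16.2, 22.6 and 24.0 CPM in controls M833, M894, M896 and M898, and 19.9, 19.9, 19.9 and 20.5 CPM in KD retinas M893, M901, M902 and M909. The KD coefficient of variation of 1.46% compared with 16.5% in the controls. Dusp1 was 24.1, 21.9, 28.0 and 30.7 CPM in the controls and 23.7, 22.6, 24.5 and 24.3 CPM in the KD retinas, with coefficients of variation of 14.9% and 3.71%. The difference in spread between genotypes was not tested. For both genes the KD range fell inside the control range, and the log2 fold changes of -0.049 (SE 0.10, 95% interval -0.28 to 0.18) and -0.14 (SE 0.093, 95% interval -0.35 to 0.068) did not exceed the spread between mice. Control M894 was the lowest of the 8 for both genes, and without it Ier2 had a log2 fold change of -0.15 and Dusp1 of -0.21, both past the unadjusted and neither past the adjusted threshold in the edgeR test (adjusted p = 0.410 and 0.353). Of all genes tested without M894, 11.8% passed the unadjusted threshold. Without control M898, the highest of the 8 for both genes, the values were 0.028 for Ier2 and -0.054 for Dusp1, neither past the unadjusted threshold.

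**Figure D2:**
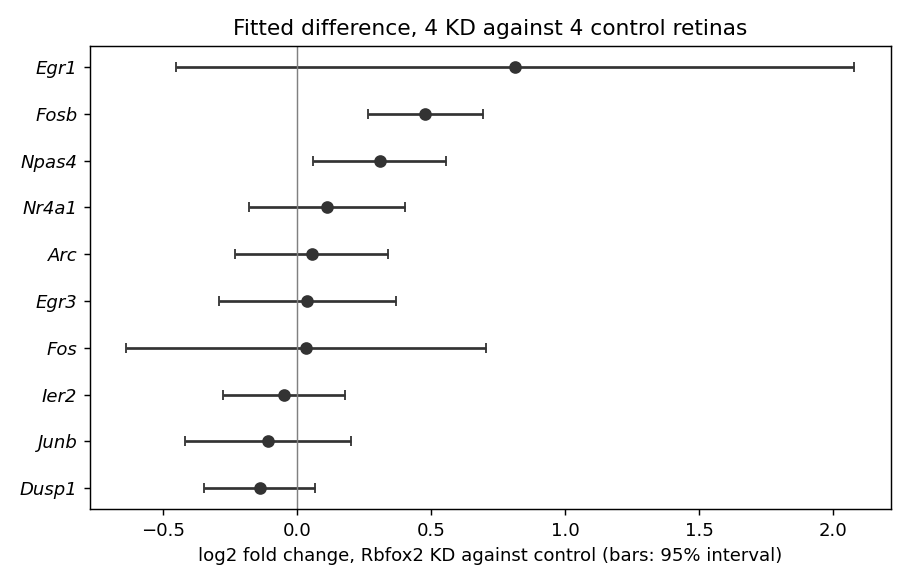
Fitted log2 fold change of each immediate early gene in 4 Rbfox2 KD against 4 control retinas (points) with its 95% interval (bars), sorted from the highest down. The intervals of Fosb and Npas4 lie above 0, the other 8 include 0, and that of Egr1 is the widest of the 10, from -0.45 to 2.08.

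Across the set, 0 of 10 genes passed an adjusted p of 0.05 in the edgeR quasi-likelihood test, where 0.0655% of the 16797 genes tested did (0.0357% higher and 0.0298% lower in the KD retinas). The unadjusted threshold of 0.05 was passed by 2, Fosb and Npas4, against a background of 13.3% of all genes (6.42% higher and 6.87% lower). The same 2 genes were the only ones of the 10 with groups that did not overlap, both higher in the KD retinas, against 7.03% of all genes in either direction with 3.64% higher and 3.39% lower. DESeq2 and edgeR's likelihood ratio test called 1 of the 10, Fosb, at an adjusted p of 0.05, where they called 2.77% and 0.976% of all genes. The median log2 fold change of the 10 was 0.046, against 0.0016 over all genes tested, and 7 of the 10 values were above 0, against 50.7% of all genes. Leaving out 1 mouse turned the sign of this median: it was -0.019 without M909 and 0.18 without M898, and 6 of the 10 genes changed sign when 1 mouse was left out.

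The genes varied more between mice than most genes of the table did. The biological coefficient of variation, the between-mouse spread that edgeR estimates after counting error, was above the median of all genes tested (8.44%) for 10 of the 10. It was 54.0% for Egr1 and 29.7% for Fos. Against genes within a factor of 2 in level, these stood at the 99.8th and 99.4th percentile. Nr4a1 (13.6%), Junb (14.6%), Ier2 (11.3%) and Dusp1 (10.3%) were also over the 90th percentile of their level. Fosb (12.2%), Npas4 (13.7%), Arc (15.4%) and Egr3 (16.9%), the 4 least abundant, stood at the 45.3rd, 51.8th, 38.0th and 37.2nd percentile, and so were no more variable than other genes of low level. This spread is pooled over the genotypes. Within the KD retinas alone, the coefficients of variation of Ier2 (1.46%) and Dusp1 (3.71%) stood at the 2.38th and 21.4th percentile of all genes.

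**Figure D3:**
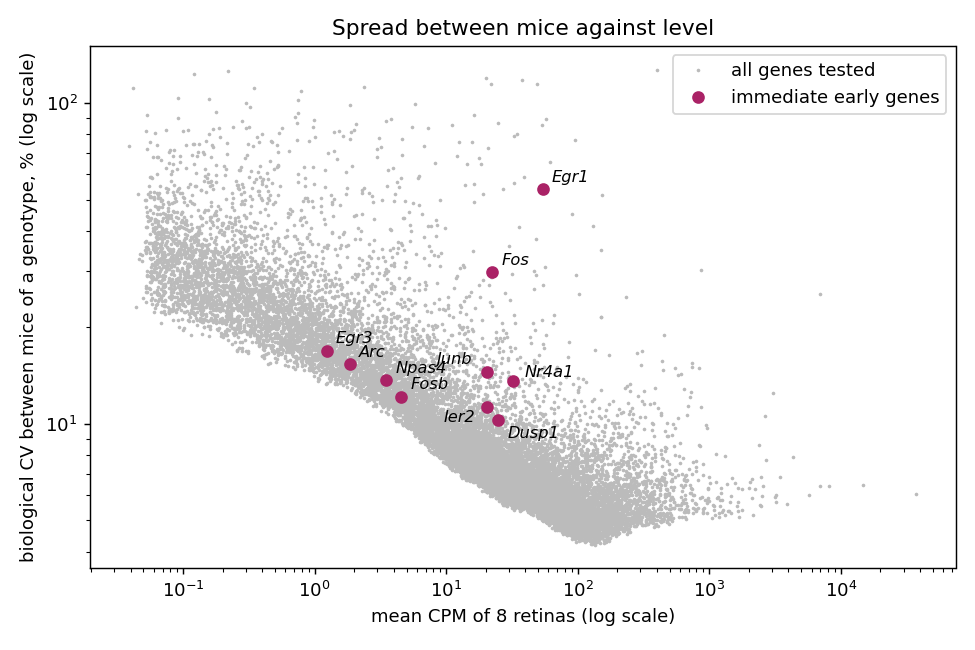
Biological coefficient of variation (percent, log axis) against mean level (CPM, log axis), with each tested gene a grey point and the 10 immediate early genes marked. Egr1 (54.0%) and Fos (29.7%) lie far above genes of the same level, whereas Fosb, Npas4, Arc and Egr3 lie within the cloud.

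Mice tended to be high or low for several of the genes at a time. Control M894 was the lowest of the 8 for 5 genes and among the 3 lowest for 9. Control M898 was the highest of the 8 for 5 genes, among the 3 highest for 8, and the highest control for 9. KD retina M909 was the highest of the 8 for 3 genes and among the 3 highest for 7. No single order held: M902 had the lowest Fos and nearly the lowest Egr1, yet for Junb it was the second highest of the 8.

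Of the 45 pairs of genes, 32 had a positive Pearson r of log2 CPM over the 8 retinas, with a median of 0.34. After adjustment over the 45 pairs, and setting Fosb with Npas4 aside because their values separate by genotype, 3 Pearson correlations passed 0.05 in an exact two-sided permutation test, those of Fos with Egr1, Ier2 with Dusp1, and Junb with Dusp1, and 1 Spearman correlation did, Junb with Dusp1. For Fos with Egr1, r was 0.94 (exact permutation p = 0.00179, adjusted p = 0.0402) and Spearman's rho 0.81 (exact permutation p = 0.0218, adjusted p = 0.163). Without M894 and M902, the retinas farthest from the median, r was 0.77, and with the mean of each genotype removed it was 0.98. For Junb with Dusp1, r was 0.89 (exact permutation p = 0.00384, adjusted p = 0.0432) and rho 0.98 (p = 0.000397, adjusted p = 0.0179), with r at 0.86 without the 2 farthest retinas and 0.90 with genotype means removed. For Ier2 with Dusp1, r was 0.89 (exact permutation p = 0.00176, adjusted p = 0.0402) and rho 0.93 (p = 0.00223, adjusted p = 0.0502), with r at 0.94 without the 2 farthest retinas. All values share the depth and scaling of their library.

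Neither Fosb nor Npas4 had a high r with Fos. Because their values fall into a group for each genotype, no pooled r is given for the pair. With genotype means removed r was 0.75, and 4 mice within a genotype are too few to test it. The r of Fos was 0.11 with Fosb and -0.0050 with Npas4, and with genotype means removed it was 0.25 and -0.012. With 8 retinas, a low r does not show that a pattern is not shared.

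**Figure D4:**
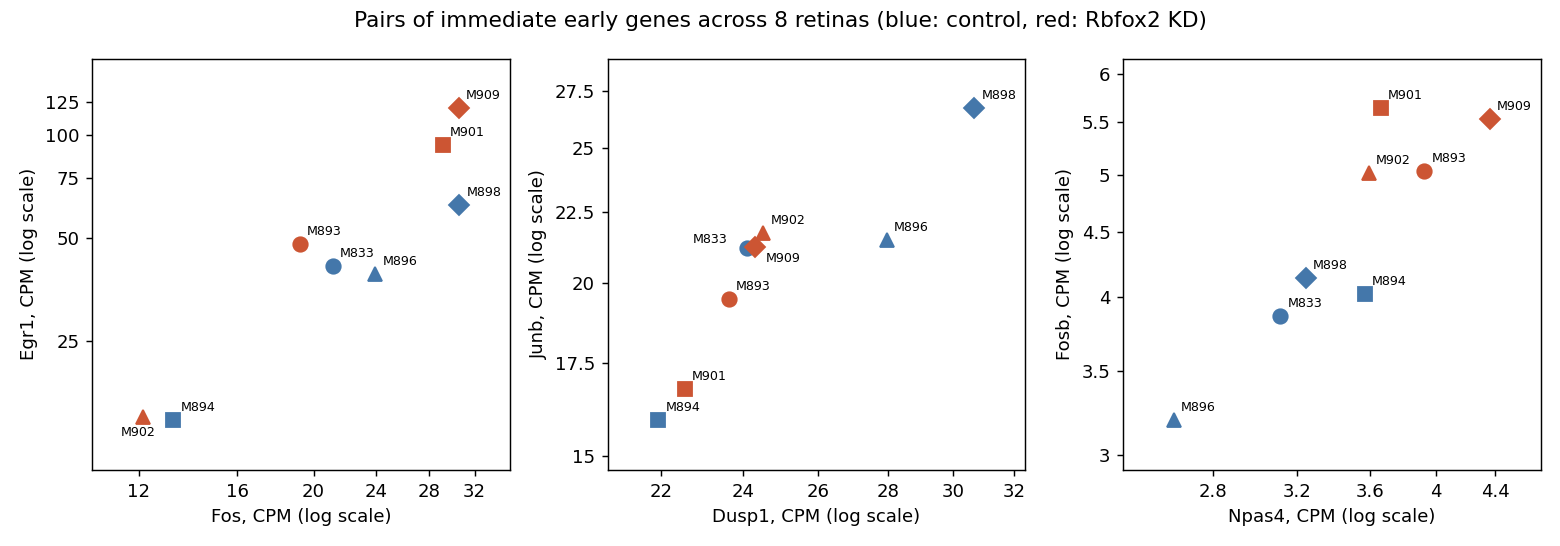
Levels of Egr1 against Fos, Junb against Dusp1, and Fosb against Npas4 in each retina (CPM, log axes), with control mice in blue and Rbfox2 KD mice in red, labelled by mouse. In the first 2 panels the genotypes are mixed along the line, with M894 and M902 lowest for Fos and Egr1, whereas in the last panel all 4 KD retinas lie above all 4 controls on both axes.

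Genes outside the set with the most similar pattern were named by the Pearson r of their log2 CPM with the mean of the 10 standardized profiles over the 8 retinas, among 16769 genes with a count in every library. The 5 with the highest r were Avpi1 (r = 0.96), Popdc3 (0.96), Gm6251 (0.93), 2210016F16Rik (0.92) and Rps27l (0.92), and after removing genotype means their r lay between 0.91 and 0.96. Avpi1 was 9.14 to 10.9 CPM in the controls and 9.97 to 10.8 CPM in the KD retinas, a narrow range in which M894 was lowest and M898 and M909 highest. These r are descriptions, as the highest of many. Among the set itself, Nr4a1 was most like the mean of the 10 (r = 0.86) and Arc least (0.089).

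Relatives of the 10 genes, in lists of known early-response and upstream genes with the 10 left out, had no gene past the adjusted threshold. Of 92 tested, from 96 listed, 5 were higher and 14 lower at an unadjusted p under 0.05 (edgeR quasi-likelihood test). This is 20.7%, where 13.3% of all genes passed. The lists were chosen with earlier results of these data known, so the difference between these shares is not a test. Of the 19 genes, 6 were among 13 stress-induced genes of other kinds. The median log2 fold change of the 92 was -0.021. DESeq2 called 8 genes of these lists and edgeR's likelihood ratio test 3 at an adjusted p of 0.05, where they called 2.77% and 0.976% of all genes. Of the other AP-1 subunits 0 of 7 passed even the unadjusted threshold. Jun, the principal partner of Fos, was 51.2 ± 3.64 CPM in the controls and 53.9 ± 3.67 CPM in the KD retinas (SD, n = 4 each), with log2 fold changes of -0.052 for Jdp2 and 0.11 for Fosl2. Of the EGR and NR4A families with the EGR corepressors 0 of 5 did, Nab1 having the lowest p (log2 fold change 0.15, adjusted p = 0.398, edgeR), followed by Nab2 (0.15) and Nr4a3 (0.25).

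Of 31 other early-response genes, 1 was higher and 4 lower at the unadjusted threshold, where 6.42% of all genes were higher and 6.87% lower. Vgf, a neuropeptide precursor induced by neurotrophins, was 79.5 ± 7.14 CPM in the controls and 96.4 ± 11.1 CPM in the KD retinas (SD, n = 4 each; log2 fold change 0.28, adjusted p = 0.253 in edgeR). The lower ones were Sik1, a salt-inducible kinase (-0.27), the transcription factor Klf2 (-0.41) and, named after their values were seen, the kinase Plk2 (-0.17) and Csrnp1 (-0.30). Among 9 other dual-specificity phosphatases, Dusp14 was higher (15.6 ± 1.33 and 18.5 ± 1.10 CPM, log2 fold change 0.24) and Dusp2 lower (0.175 ± 0.0224 and 0.113 ± 0.0303 CPM, at 12 to 39 counts per library, log2 fold change -0.62). Dusp6, which inactivates ERK, had a log2 fold change of -0.15 (95% interval -0.33 to 0.040).

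Upstream, 2 of 27 factors and kinases were higher and 4 lower at the unadjusted threshold (6.42% and 6.87% of all genes). Camk2b, a subunit of the calcium/calmodulin-dependent kinase II, was 213 to 218 CPM in the controls and 190.4 to 204 CPM in the KD retinas, with no overlap (log2 fold change -0.12, adjusted p = 0.192, edgeR). Camk2a, a subunit of the same kinase, was 67.0 ± 5.71 and 57.4 ± 1.66 CPM (log2 fold change -0.22). The higher ones were Map2k2, a kinase that activates ERK (0.16), and, named after its values were seen, the serum response factor partner Elk1 (0.17). Likewise named, Crtc1 and Mkl2, coactivators of CREB and of serum response factor, were lower by smaller amounts (-0.071 and -0.078).

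Stress-induced genes of other kinds held the lowest p of the lists. Of 13, 1 was higher and 5 lower at the unadjusted threshold (6.42% and 6.87% of all genes). Per1, a clock gene that also responds to glucocorticoids and CREB, was 141.3, 132.7, 143.4 and 145.8 CPM in controls M833, M894, M896 and M898, and 116.2, 111.1, 127.2 and 115.9 CPM in KD retinas M893, M901, M902 and M909. The groups did not overlap, and the log2 fold change of -0.26 (SE 0.047) had an adjusted p of 0.0853 in the edgeR test. Txnip, a thioredoxin inhibitor induced by glucose, was 13.6 ± 4.41 CPM in the controls and 7.15 ± 1.16 CPM in the KD retinas (log2 fold change -0.93), and control M833, at 7.22 CPM, was within the KD range. Zbtb16, a glucocorticoid target, was 12.4, 6.81, 13.1 and 14.7 CPM in the controls and 7.16, 7.81, 5.99 and 6.40 CPM in the KD retinas (log2 fold change -0.78). The remaining genes were named after their values were seen. Hsph1, a heat shock protein, was the higher one, at 57.9 ± 2.80 CPM in the controls and 74.8 ± 12.8 CPM in the KD retinas (log2 fold change 0.37). Of the other glucocorticoid targets, Sgk1 and Tsc22d3 had log2 fold changes of -0.030 (95% interval -0.19 to 0.13) and -0.25 (95% interval -0.45 to -0.045). Fkbp5 was 34.0 CPM in M894 against 47.7 to 51.6 CPM in the other controls and 31.9 to 36.1 CPM in the KD retinas. Control M894 was therefore within the KD range for Zbtb16 and Fkbp5, but above it for Per1. It was also the lowest of the 8 for 5 of the 10 early genes, Dusp1 among them, and a link between these was not tested.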

How the data were processed

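Per the labels and the study's methods, the authors sequenced poly(A) libraries of total retinal RNA, aligned reads to mm10 with STAR and made a count per gene with HTSeq from uniquely mapped reads; whether counting used strand is not given in the sources used here. The same deposited table also holds FPKM, which the authors derived from the counts and transcript lengths and which served here only to rank levels per length, and an adjusted count per library (a normalized signal by the authors) that entered no result. The authors' columns of fold changes, p-values and FDR were not used.

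Counts as deposited were tested with edgeR 4.0.16 (R 4.3.3): filterByExpr, TMM, glmQLFit and glmQLFTest, 4 against 4 libraries with no covariate, with Benjamini-Hochberg adjustment over the 16797 genes tested; 703 genes failed the filter. CPM use TMM-scaled library sizes. Correlations used exact permutations over the 8 libraries with adjustment over 45 pairs. DESeq2 1.42.0, limma-voom (limma 3.58.1), the likelihood ratio test, upper-quartile scaling, other filters and leaving out mice were the alternatives. The members and lists were chosen with earlier results of these data known. Genes named were the 10 members, the 3 lowest p in each wider list, the 5 most similar profiles, Rbfox2 and Xist; Krt5 and others named beyond that rule were chosen after their values were seen. Each library is 1 mouse, the CPM given for a count of 3 covers counting error only, and the 95% intervals of fold changes include the spread between mice.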

Additional observations from a re-analysis of the deposited data

Results flagged for a closer look

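In the KD group of Ier2, retina M909 at 20.5 CPM stood away from the other 3 at 19.9, 19.9 and 19.9 CPM, with a gap that was 0.887 of the whole range and above Dixon's 95% critical value for 4 samples. The range itself was narrow. Of 56 groups of 4 examined, this was the 1 set apart, where chance gives about 1 in 20, or 2.8.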

How the results depend on the processing

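The number of genes called over the whole table was 11, and it was 465 with DESeq2, 164 with the likelihood ratio test, 1 without M901 and M902, and 5 (without M893, M896, M901 or M909) to 35 (without M833) when 1 mouse was left out. None of the 10 members was called, and leaving out 1 mouse left 0, whereas DESeq2 and the likelihood ratio test called 1, Fosb. At an unadjusted p under 0.05 there were 2 members, and 1 (without M896 or M909) to 4 (without M894) when 1 mouse was left out. The share of all genes tested moved too: it was 13.3% with all mice, 8.84% without M896, 17.8% without M909 and 11.8% without M894. In the wider lists 0 genes were called, 8 with DESeq2, 3 with the likelihood ratio test and 0 to 2 (without M833 or M894) when 1 mouse was left out. Leaving out 1 mouse turned the direction of 6 members whose difference was not called: the log2 fold change ranged from -0.025 to 0.14 for Arc, -0.020 to 0.14 for Egr3, -0.15 to 0.24 for Fos, -0.15 to 0.028 for Ier2, -0.22 to 0.019 for Junb and -0.019 to 0.22 for Nr4a1. Fosb stayed between 0.40 and 0.52, with adjusted p between 0.106 and 0.363 in edgeR. The median of the members was 0.046, ranged from -0.019 to 0.18 when 1 mouse was left out, and was 0.16 without M901 and M902. The cause of these differences was not tested. No paired analysis was possible because the labels name each mouse by its own number and give no replicate numbers, those used here being only names in accession order. Arc and Egr3 had the fewest counts of the members, at 298 to 388 and 191 to 268 per library. Their log2 fold changes still had smaller SEs (0.13 and 0.15) than those of Fos (0.30) and Egr1 (0.57).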
